A study of Mus musculus with 20 samples.

Results

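The collagen chains on the array were described in quadriceps, a thigh muscle, of young mice whose mothers ate a high-fat or a low-fat diet. Members were all non-control probes whose gene name in the scanner files was Col, a number, the letter a and a number. This gave 68 probes for 43 genes, of 30396 gene names on the array. The genes fell into 11 fibrillar collagens, 6 basement membrane collagens of type IV, 6 type VI collagens and 20 others. The rule reads names only and uses no measured value.

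RNA came from 20 male C57BL/6J mice aged 6 weeks. In the mHFD group (10 mice) the dams received a diet with 40% of energy from fat from 3 days before mating until the end of lactation, and in the mLFD group (10 mice) a diet with 10%. Carbohydrate gave 37% of energy in the high-fat and 67% in the low-fat diet, and protein 23% in both. More fat and less carbohydrate therefore cannot be told apart. Dams of both groups were 8 weeks old. Offspring of both groups ate the low-fat diet in single cages after weaning and were killed after 2 h of fasting, so the groups differed in the diet of the mother. The labels do not tie mice to litters, and a group could hold up to 4 mice of one litter, so mice of a group may not be independent and p-values may be too small. Sample RNA carried the dye Cy5 and a common pool of all the samples the dye Cy3, and values are log2 ratios of sample to pool. Differences are mHFD minus mLFD with the standard error (SE) of limma, a linear model that shares information on spread between probes, and p-values are two-sided.

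Collagens are secreted proteins whose chains wind into a triple helix, in which glycine recurs at a regular step along the chain. Fibrillar collagens assemble into the cables of tendon and of the connective tissue around muscle fibres and bundles. Type IV collagens form the sheet-like network of the basement membrane that wraps each muscle fibre and capillary, and type VI collagens form beaded filaments between that membrane and the surrounding tissue. Mutations of type VI chains cause muscular dystrophies. In muscle most collagen RNA is made by fibroblasts and related connective tissue cells, not by the fibres. In a bulk sample, fewer cells of a type and less RNA per cell cannot be told apart.

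The glycine repeat can be read directly in some of the array probes, which are shown here because they report the helix-coding part of a transcript. Of the 68 collagen probes, each 60 bases long, 4 held at least 4 GGN triplets spaced 9 bases apart, the spacing of glycine codons in a helix (5.88%, against 0.0989% of all probes). They are printed 5′ to 3′ in the sense direction, with those triplets in capitals. Positions are those of the scanner files, in mouse build mm9, and all 4 lie on the plus strand.
Col15a1, chr4:47283786-47283845: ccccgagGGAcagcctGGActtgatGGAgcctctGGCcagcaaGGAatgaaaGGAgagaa
Col14a1, chr15:55347733-55347792: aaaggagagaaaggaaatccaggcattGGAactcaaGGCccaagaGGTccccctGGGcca
Col16a1, chr4:129756457-129756516: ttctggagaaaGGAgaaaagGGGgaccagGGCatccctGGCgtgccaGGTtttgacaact
Col25a1, chr3:130270497-130270556: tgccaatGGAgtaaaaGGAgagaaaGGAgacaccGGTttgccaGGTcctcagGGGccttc
The Col15a1 helix probe was well above background in Cy5 on 18 of 20 arrays, while the other probes for this gene, a pair that overlap each other and start 41475 bases or more further along, were above background on 6 and 4 arrays. The Col14a1 helix probe was above background on 13 arrays, and those of Col16a1 and Col25a1 on 1 array each.

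Detected genes were counted by class of chains, and some classes hold few genes. At least 1 probe was well above background on 10 or more arrays for 29 of the 43 genes, and only these were compared between groups. That was 67.4% of collagen genes, while 15302 of the 30396 gene names on the array were compared. By probe it was 51.5% of collagen probes, against 48.7% of all probes. Of them 19 genes were above background on all 20 arrays and 10 on 10 to 19 arrays. Among fibrillar collagens 10 of 11 genes were compared, with 6 on all arrays. These 6 were Col1a1 and Col1a2, the chains of type I collagen, Col3a1, the chain of type III, and the type V chains Col5a1, Col5a2 and Col5a3. Col2a1 was above background on 18 arrays, Col11a1 on 15 and Col11a2 on 13. These chains are best known from cartilage. Col24a1 was above background on 13 arrays and Col27a1 on 1.

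Of the type IV chains, Col4a1, Col4a2, Col4a4 and Col4a5 were above background on all arrays, Col4a6 on 18 and Col4a3 on 1. For Col4a4 this held for 1 probe only, and its other probes were above background on 4 and 0 arrays. The other Col4a6 probe was above background on 7. Of the type VI chains, Col6a1, Col6a2 and Col6a3, which build the classical molecule, were above background on all arrays. The 3 chains added later to the family were not compared, with Col6a6 on 3 arrays and Col6a4 and Col6a5 on none. Of the other collagens 11 of 20 were compared and 6 were on all arrays, among them Col12a1, Col14a1, Col16a1 and Col22a1, which decorate fibrils or anchor them. The 9 others not compared were the cartilage chains Col9a1, Col9a3 and Col10a1, the membrane-spanning chains Col13a1, Col17a1, Col23a1 and Col25a1, and Col19a1 and Col28a1. Their best probe was above background on at most 6 arrays (Col23a1), and 5 of the 43 genes were above background on no array.

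All 10 genes found on 10 to 19 arrays were above background on more mLFD than mHFD arrays, for example Col11a1 on 9 mLFD and 6 mHFD arrays and Col8a1 on 8 and 5. The same held for 66.8% of the 4758 tested probes in that range, and the mean number of probes above background was 19531 in mLFD and 18977 in mHFD. None of these collagen genes was detected in 1 group only.

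**Figure D1:**
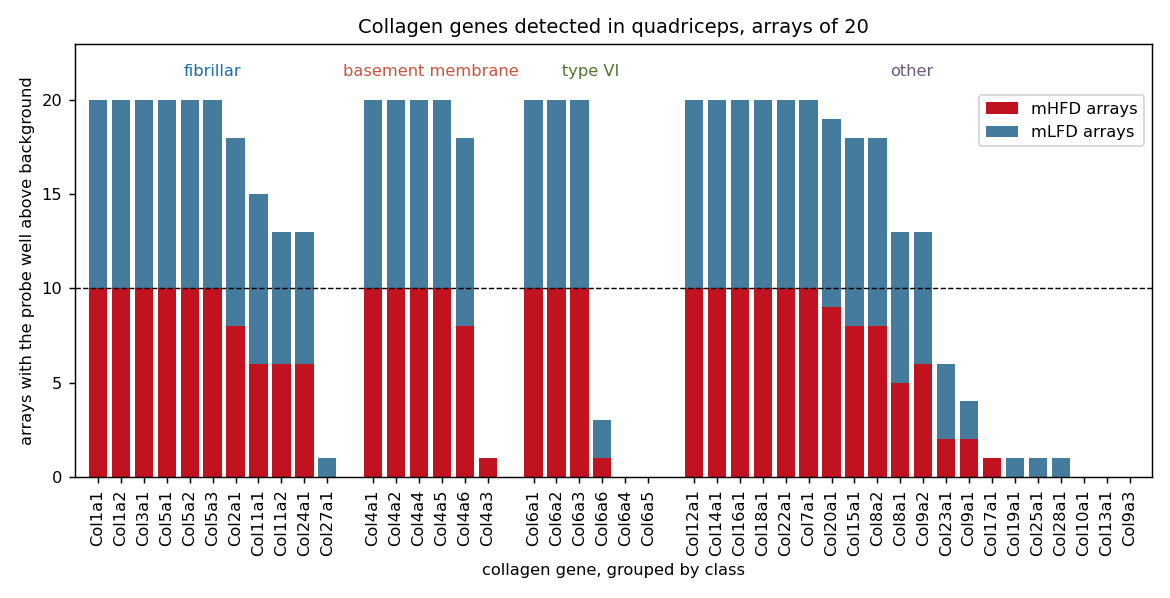
Number of arrays on which the probe of each collagen gene was well above background (y axis, arrays of 20), stacked as mHFD (red) and mLFD (blue) arrays and grouped by class on the x axis. The dashed line at 10 arrays marks the limit for comparison. The 29 genes reaching it are compared below, and each of the 10 genes between 13 and 19 arrays has a taller mLFD part.

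The tissue label matched its markers. All 10 muscle fibre markers looked at were compared, with differences between -0.06 and 0.19, and none of 8 cartilage and bone markers was above background on 10 or more arrays. The number of probes above background ranged from 15506 to 23410 per array, and the median SE of a difference was 0.0609. The arrays lay on 5 slides of 4, each with 2 mHFD and 2 mLFD samples. Over 15302 genes compared, 1 gene (0.00654%), Bcl6, passed an adjusted p of 0.05.

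No collagen gene passed that threshold (limma, Benjamini-Hochberg over all probes, smallest adjusted p = 0.689). At an unadjusted p under 0.05 there were 3 of 29 collagen genes with a lower value in mHFD, against 3.3% of all genes, and 0 with a higher value, against 3.93% of all genes. Col1a1, Col11a1 and Col16a1 were the 3. A difference below 0 was fitted for 23 of 29 collagen genes, against 49.6% of all genes, with a median of -0.04 against 0.00083. Signs of chains made by the same cells are not independent of each other. With array position as a covariate, 16 of 29 were below 0, against 46.5% of all probes compared. In that fit 1 (Col11a1) was lower at an unadjusted p under 0.05, against 1.80% of probes. On each slide the mHFD samples lay at the odd positions and the mLFD samples at the even ones, and an effect of odd against even positions cannot be told apart from the groups.

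By class, 8 of 10 fibrillar collagens were below 0, with a median of -0.07. The other classes were 3 of 5 basement membrane chains (median -0.07), 3 of 3 type VI chains (-0.06) and 9 of 11 other collagens (-0.03). The basement membrane median was 0.0050 in the authors' deposited value table, and the type VI median was 0.02 with position as a covariate. With single arrays left out, the fibrillar median lay between -0.10 and -0.03, the basement membrane median between -0.08 and -0.02, the type VI median between -0.11 and -0.03 and that of the others between -0.04 and -0.02. The values nearest to 0 came without mLFD 07, mLFD 06, mHFD 03 and mLFD 02, in this order, and the type VI median was -0.11 without mHFD 08. The groups overlapped for all 29 genes. Overlap was not counted over all genes, so it cannot be read as a trait of collagens. For 24 of them the 95% confidence interval of the difference lay within 0.3 of 0 on either side, which is the precision that 10 mice per group gave.

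**Figure D2:**
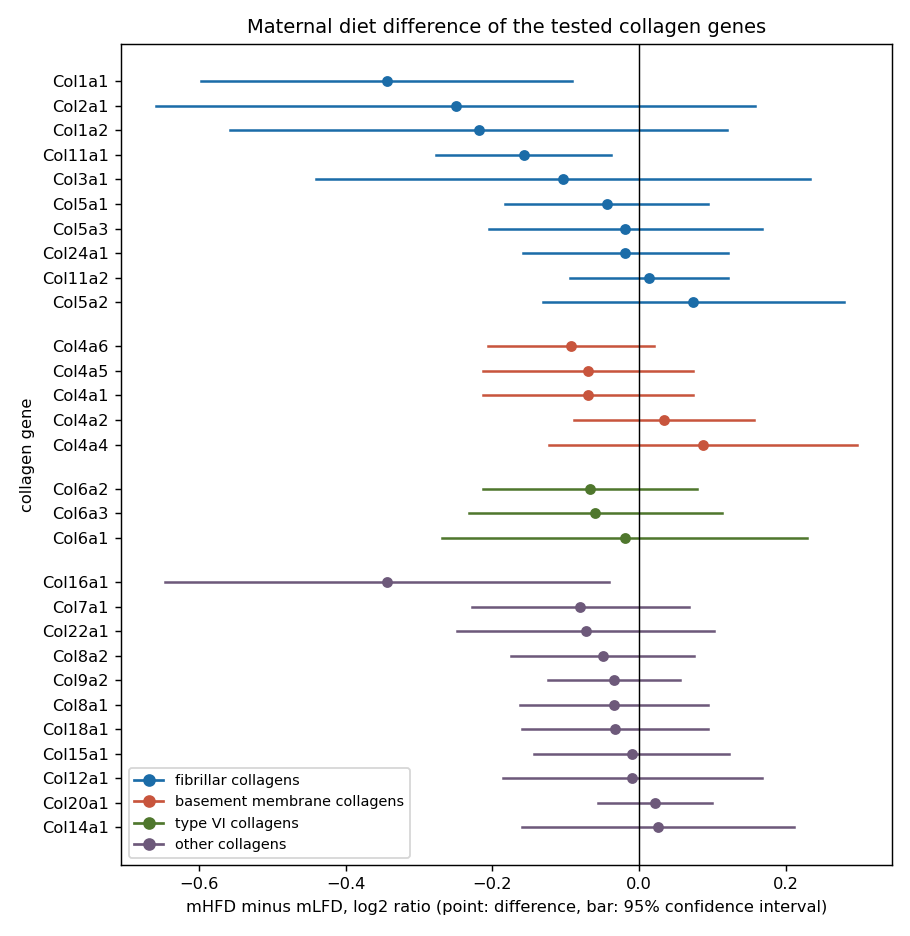
Difference between groups for each of the 29 compared collagen genes (x axis, log2 ratio, mHFD minus mLFD), with the 95% confidence interval as a bar and colours for the classes. Points for Col1a1 and Col16a1 lie farthest to the left, at -0.34, and only their intervals and that of Col11a1 leave out 0, before adjustment for the number of genes.

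Type I collagen is the main collagen of tendon and of muscle connective tissue, built from Col1a1 and Col1a2 chains in one molecule. Col1a1 log ratios were -0.76, -0.43 and 0.10 (lowest, median and highest) in mHFD and -0.59, -0.04 and 0.48 in mLFD. In mHFD 9 of 10 arrays lay below the mLFD median, the exception being mHFD 08, but just 1 lay below the lowest mLFD array. The difference was -0.34 (SE 0.12, unadjusted p = 0.0099, limma adjusted p = 0.689), or 1.27-fold lower in mHFD, with a 95% interval of the log2 difference from -0.60 to -0.09. Within slides 1 to 5 it was -0.35, -0.49, -0.56, -0.21 and -0.11, and with the Cy5 signal alone -0.26 (unadjusted p = 0.187). The probe lies at chr11:94813115-94813174.

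Col1a2, the partner chain, ran from -1.16 through -0.38 to 0.14 in mHFD and from -0.75 through -0.03 to 0.38 in mLFD. One mLFD array (mLFD 04) had no value because its spot was marked as an outlier. Its difference was -0.22 (SE 0.16, unadjusted p = 0.194), with an interval from -0.56 to 0.12 that holds both 0 and the Col1a1 value, and it was -0.13 without mHFD 06, the lowest array. By slide it was -0.27, 0.17, -0.60, -0.20 and 0.10, so that 3 of 5 slides were below 0 against 5 of 5 for Col1a1. These counts are not alike for slide 2. There the Col1a2 value rests on 1 mLFD array (mLFD 03, -0.75), while Col1a1 also includes mLFD 04, its highest mLFD array (0.48).

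The 250 bases upstream of the annotated Col1a2 start are shown because the promoter of this gene is known for a CCAAT box, an element bound by the factor NF-Y. The sequence is from RefSeq, build GRCm38.p6, plus strand, chr6:4505368-4505617, with the CCAAT match in capitals.
Col1a2 upstream: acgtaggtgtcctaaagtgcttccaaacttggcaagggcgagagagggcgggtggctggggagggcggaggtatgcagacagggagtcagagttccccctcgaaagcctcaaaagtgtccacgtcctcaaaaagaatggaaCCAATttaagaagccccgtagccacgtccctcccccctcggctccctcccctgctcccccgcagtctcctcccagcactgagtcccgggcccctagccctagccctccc
CCAAT was searched on both strands in the 250 upstream bases, without other motifs overlapping it. It occurred in 13 of 38 collagen windows (34.2%, from 35 genes), near the 33.8% of all 32851 windows. Those of Col11a1 and Col16a1 held it as well, and Col1a1 had no window in the table. A match in this window is a description of the letters only.

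Col3a1 encodes type III collagen, which is abundant in young and remodelling connective tissue. Its values were -0.36, 0.05 and 0.44 in mHFD and -0.29, 0.01 and 1.44 in mLFD. The highest, on mLFD 07, stood 1.18 above the next mLFD array, and the medians of the groups differed by less than 0.05. The difference was -0.10 (SE 0.16, unadjusted p = 0.531) over all arrays and 0.04 without mLFD 07.

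The same array set the value of Col2a1, the main chain of cartilage collagen. Col2a1 ranged from -0.80 through -0.37 to 0.10 in mHFD and from -0.45 through -0.28 to 1.71 in mLFD, and 1.71 was the value on mLFD 07. Without that array the difference went from -0.25 (SE 0.20, unadjusted p = 0.218) to -0.05. On mLFD 07 Col1a1 (0.43), Col1a2 (0.22), Col4a1 (0.24), Col6a2 (0.15) and Col6a3 (0.08) each ranked second of all arrays and Col4a2 (0.29) first. The remaining type IV and type VI chains compared ranked lower on it, Col6a1 and Col4a5 at 11, Col4a4 at 13 and Col4a6 at 14. The cartilage chains Col9a2 (0.04) and Col11a2 (0.10) ranked 12 and 4 there. Of the 8 cartilage and bone markers, 2 were well above background on mLFD 07, as on mLFD 02, and 0 or 1 on each of the other arrays. Their part in the Col2a1 value was not tested.

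The minor fibrillar chains join or nucleate the larger fibrils. Col11a1 had the second smallest p of the class. Its values were -0.47, -0.19 and 0.08 in mHFD and -0.18, -0.01 and 0.11 in mLFD, so that 5 mHFD arrays lay below every mLFD array. The difference was -0.16 (SE 0.06, unadjusted p = 0.012, limma adjusted p = 0.689), with slides at -0.42, -0.10, -0.12, 0.07 and -0.22. It was not well above background on 4 mHFD and 1 mLFD arrays. The difference was -0.47 with the log ratio of the scanner software and -0.09 (unadjusted p = 0.132) without slide 1. Type V chains, which nucleate type I fibrils, had differences of -0.04 (Col5a1), 0.07 (Col5a2) and -0.02 (Col5a3). Col11a2 had 0.01 and Col24a1 -0.02.

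**Figure D3:**
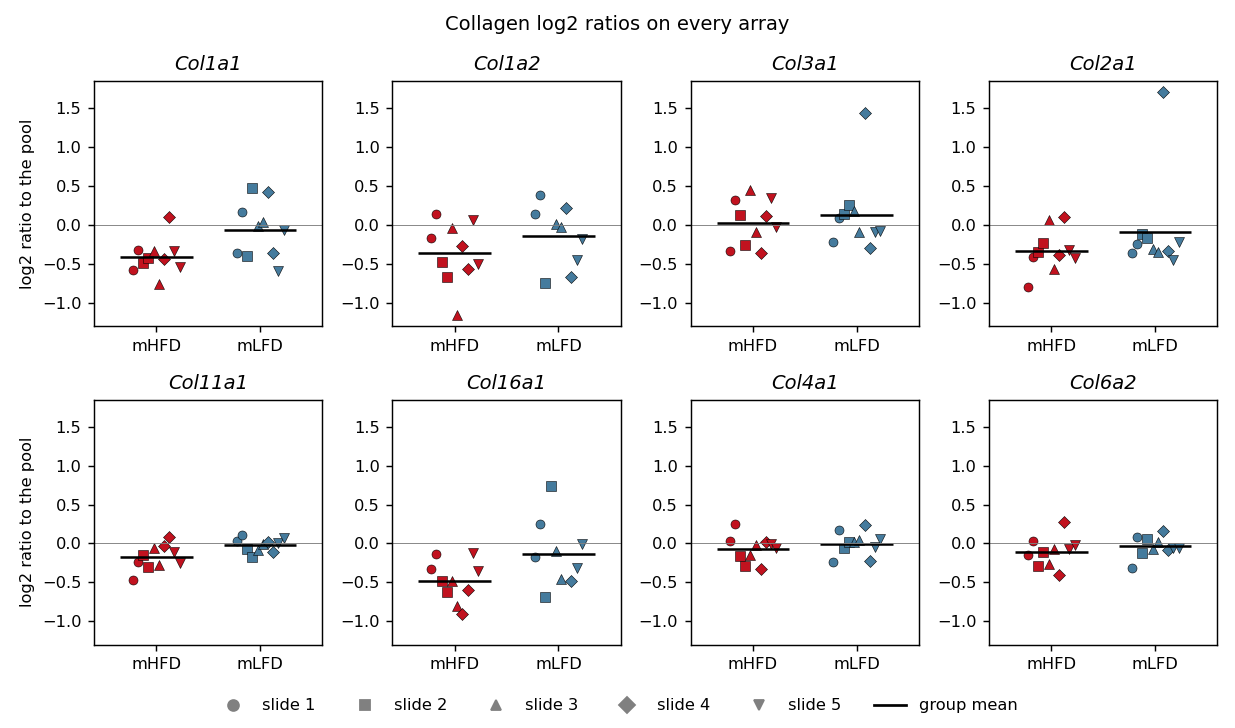
Log2 ratio to the pool (y axis) on every array for 8 collagen genes, by group (x axis), with a marker shape for each slide and a line at the group mean. The groups overlap in every panel, and in those of Col3a1 and Col2a1 a single mLFD array of slide 4 stands at 1.44 and 1.71.

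In the basement membrane, Col4a1 and Col4a2 form the network found in nearly all tissues, and they are neighbours whose transcripts start head to head. In RefSeq (GRCm38.p6) their first bases lie 21 bases apart on opposite strands of chromosome 8. Col4a1 starts at 11312826 on the minus strand and Col4a2 at 11312805 on the plus strand. Each start therefore lies within the span of the other transcript, with no gap between them. Col4a1 ranged from -0.33 through -0.04 to 0.25 in mHFD and from -0.24 through 0.02 to 0.24 in mLFD. Col4a2 ranged from -0.21 through -0.06 to 0.11 in mHFD and from -0.29 through -0.12 to 0.29 in mLFD. The mLFD range lay inside the mHFD range for Col4a1, and the mHFD range inside the mLFD range for Col4a2. Differences were -0.07 (SE 0.07, unadjusted p = 0.325) for Col4a1 and 0.03 (SE 0.06, unadjusted p = 0.571) for Col4a2, with 95% intervals from -0.21 to 0.07 and from -0.09 to 0.16.

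The remaining type IV chains are limited to certain basement membranes. Col4a6 had the smallest p of the class, with values of -0.07, 0.03 and 0.28 in mHFD and 0.0037, 0.18 and 0.32 in mLFD and a difference of -0.09 (SE 0.05, unadjusted p = 0.102). It was 0.01 in the authors' deposited value table. Col4a5 differed by -0.07 and Col4a4 by 0.09, the latter with 1 high mHFD array (mHFD 05, 0.69) and a difference of 0.01 without it.

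Type VI collagen is built from Col6a1, Col6a2 and Col6a3 chains in equal amounts. Col6a1 had the widest spread of the 3, from -0.67 through -0.21 to 0.11 in mHFD and from -0.73 through -0.17 to 0.32 in mLFD, and a difference of -0.02 (SE 0.12, unadjusted p = 0.871). Col6a2 ranged from -0.40 through -0.09 to 0.28 and from -0.32 through -0.06 to 0.15, with a difference of -0.07 (SE 0.07, unadjusted p = 0.351). A dimmer Col6a2 probe gave -0.02. Col6a3 ranged from -0.54 through -0.18 to 0.26 and from -0.49 through -0.14 to 0.08, with a difference of -0.06 (SE 0.08, unadjusted p = 0.48). For Col6a1 the mHFD range lay inside the mLFD range, and for Col6a2 and Col6a3 the mLFD range lay inside the mHFD range.

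Col16a1, a chain that associates with fibrils, had the smallest p among the other collagens, and its probes disagreed. On the brighter probe (chr4:129776333-129776392) values were -0.91, -0.48 and -0.12 in mHFD and -0.69, -0.17 and 0.73 in mLFD, with 4 of 9 mLFD arrays above every mHFD array. The difference was -0.34 (SE 0.15, unadjusted p = 0.028, limma adjusted p = 0.689), and it was -0.24 (unadjusted p = 0.063) without mLFD 04, the highest array. mLFD 07 had no value because of an outlier mark. A second probe, which starts 127 bases further along and was above background on all 20 arrays, gave -0.01 (SE 0.06, unadjusted p = 0.816). Over arrays the 2 probes correlated with r = 0.21.

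Col22a1, a chain of the junction between muscle and tendon, also had a pair of probes with unlike values. On the brighter probe the values were -0.44, -0.24 and 0.07 in mHFD and -0.48, -0.14 and 0.24 in mLFD, a difference of -0.07 (SE 0.08, unadjusted p = 0.400). On the dimmer probe, whose start is 70439 bases away, they were -0.38, -0.25 and -0.01 in mHFD and -0.28, 0.0061 and 0.23 in mLFD. There 10 of 10 mHFD arrays lay below the mLFD median and 6 mLFD arrays above every mHFD array. The difference on that probe was -0.19 (SE 0.06, unadjusted p = 0.0053, limma adjusted p = 0.679), below 0 on 5 of 5 slides. It was the smallest unadjusted p of any collagen probe, and the probes correlated with r = 0.40.

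**Figure D4:**
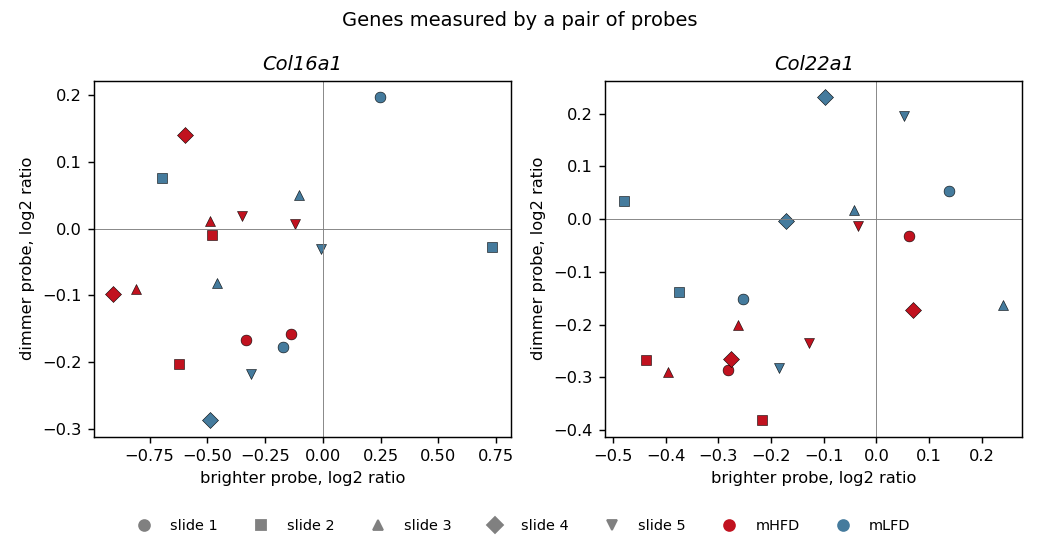
Log2 ratio on the brighter probe (x axis) against that on the dimmer probe (y axis) of Col16a1 and Col22a1, one point per array, coloured by group and shaped by slide. Points scatter without a tight line (r = 0.21 and 0.40), and mHFD points sit to the left for Col16a1 and low for Col22a1.

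Col7a1, the chain of anchoring fibrils, ranged from -0.58 through -0.14 to 0.12 in mHFD and from -0.34 through -0.12 to 0.01 in mLFD, with a difference of -0.08 (SE 0.07, unadjusted p = 0.275). Col8a1 and Col8a2, network chains of vessel walls, had differences of -0.03 and -0.05, and the cartilage chain Col9a2 had -0.03. Col12a1 and Col14a1, which bind the surface of type I fibrils, had -0.01 and 0.03 (-0.0048 on the helix probe of Col14a1 printed above). Col15a1 and Col18a1, which attach to basement membranes, had -0.01 and -0.03 (0.09 on a second Col18a1 probe), and Col20a1 had 0.02 (-0.0042 on a second probe).

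How far chains of the same molecule or fibril varied together was asked over the arrays. The spread over 20 arrays was largest for Col2a1 (SD 0.49), Col1a2 (0.40), Col3a1 (0.40), Col16a1 (0.38) and Col1a1 (0.34), and smallest for Col20a1 (0.06). The median SD of the 29 collagen genes was 0.16, against 0.14 over all genes compared. By class it was 0.22 for fibrillar, 0.19 for type VI, 0.16 for basement membrane and 0.14 for other collagens. The median over the 29 genes on an array ran from -0.23 (mHFD 07) to 0.04 (mHFD 08) in mHFD and from -0.17 (mLFD 08) to 0.09 (mLFD 02) in mLFD, so the arrays of both groups covered much the same range.

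Of 9 pairs of chains correlated over arrays, Col6a2 with Col6a3 had the closest relation (r = 0.78, rho = 0.71, permutation p adjusted over the 9 pairs 0.0011 and 0.0073). Col4a1 with Col4a2 followed (r = 0.71, rho = 0.55, adjusted permutation p = 0.0020 and 0.027). Both kept r without the 2 arrays farthest from the median of the first chain (0.78 and 0.71) and after subtraction of group and slide means (0.85 and 0.86). A slide held 4 arrays, too few for a value within each slide. For Col1a1 with Col1a2 r was 0.60 (n = 19 arrays, rho = 0.59, adjusted permutation p = 0.019 and 0.027), with Col3a1 0.57 (rho = 0.54, 0.019 and 0.027) and with the basement membrane chain Col4a1 0.51 (rho = 0.56, 0.036 and 0.027). Without the 2 arrays farthest from the Col1a1 median, r of these 3 pairs was 0.44, 0.28 and 0.42 (adjusted permutation p = 0.146, 0.344 and 0.146). Leaving out the farthest arrays also narrows the range of Col1a1. mLFD 07 was among the arrays left out in each case. With all arrays and group and slide means subtracted, r of these pairs was 0.72, 0.58 and 0.64, with adjusted permutation p = 0.013, 0.039 and 0.033. Within mHFD alone r of these pairs was 0.34, 0.41 and 0.17, and within mLFD alone 0.73, 0.65 and 0.72. Whether r differed between the groups was not tested.

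Other partners showed no relation past the threshold. Col6a1 with Col6a2, which share a molecule, had r = 0.06 (rho = 0.13, adjusted permutation p = 0.907) and 0.46 (0.146) without the 2 arrays farthest from the Col6a1 median, and Col5a1 with Col5a2 had r = 0.24 (rho = 0.31, 0.397). The pairs from different classes, Col1a1 with Col6a1 and Col4a1 with Col6a1, had r = -0.02 (rho = -0.0060, 0.949) and 0.38 (rho = 0.30, 0.148). Col1a1 with Col6a1 had r = -0.63 within mHFD and 0.25 within mLFD, and Col4a1 with Col6a1 0.53 and 0.26. These values depend on the normalization. With each array centred on its median in place of loess, r of all 9 pairs lay between 0.77 and 0.98, those from different classes included.

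**Figure D5:**
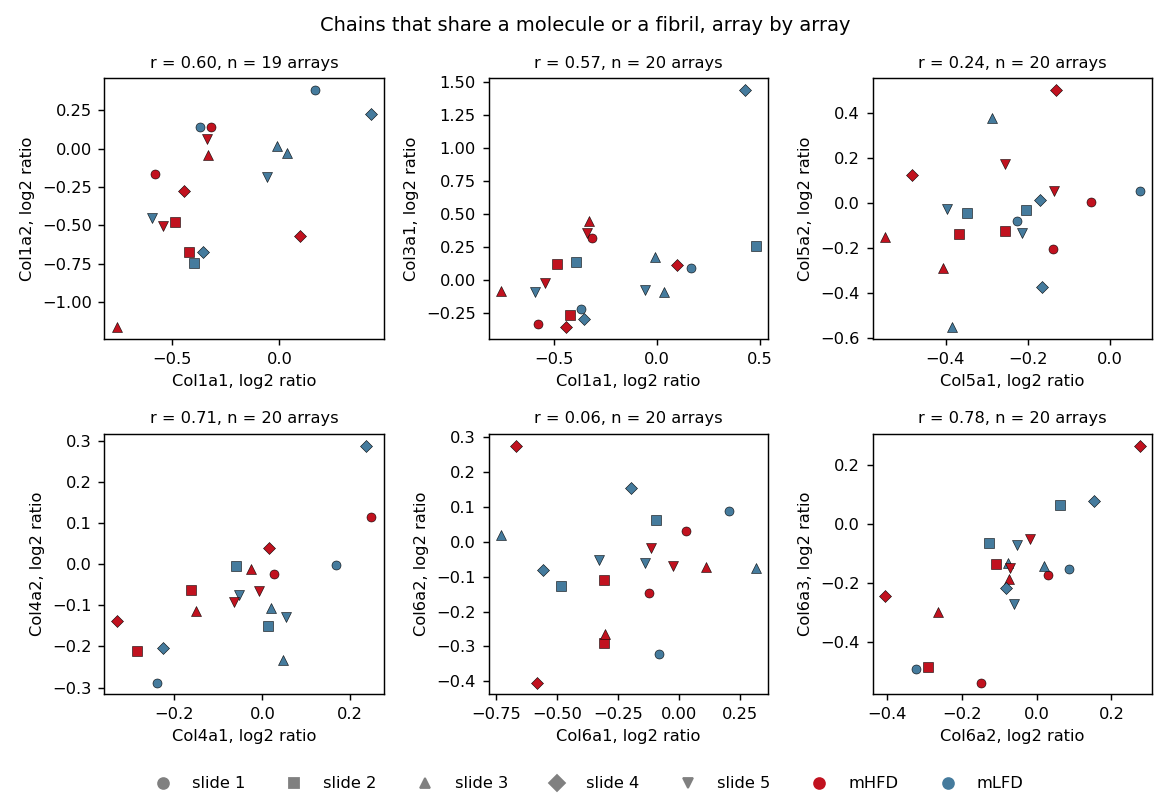
Log2 ratio of one chain against its partner, one point per array, for 6 pairs that share a molecule or a fibril, coloured by group and shaped by slide. Points follow a line for Col4a1 with Col4a2 (r = 0.71) and Col6a2 with Col6a3 (r = 0.78) and scatter for Col6a1 with Col6a2 (r = 0.06), and the mLFD array of slide 4 at the upper right of the Col1a1 panels is mLFD 07.

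Collagen chains need enzymes, chaperones and partners before they become tissue. Of 73 such genes on the array 64 were compared and 0 passed the threshold (limma, smallest adjusted p = 0.679), with 2 at an unadjusted p under 0.05 lower and 1 higher in mHFD, against the 3.3% and 3.93% of all genes. A difference below 0 was found for 38 of 64, against 49.6% of all genes, with a median of -0.02. Enzymes that hydroxylate proline and lysine or add sugars had 4 of 13 below 0 (median 0.05). Among them P4ha2, a subunit of prolyl 4-hydroxylase, had a difference of 0.26 (SE 0.09, unadjusted p = 0.0056) and the galactosyltransferase Colgalt2 0.08 (SE 0.05, unadjusted p = 0.078). Chaperones and export factors had 6 of 10 below 0 (median -0.02), with -0.16 for Fkbp10 and -0.10 for Fkbp7, both prolyl isomerases of the endoplasmic reticulum.

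For propeptide cleavage and crosslinking 6 of 11 were below 0 (median -0.01), with -0.11 for the lysyl oxidases Loxl1 (-0.03 on another probe) and Loxl2 (-0.05 and 0.0060 on others). Collagen receptors had 7 of 8 below 0 (median -0.03). The receptor kinase Ddr2 had 0.08 on its brighter and -0.08 on its dimmer probe, and the integrin chain Itga10 had -0.10 and -0.12. Degrading enzymes and their inhibitors had 5 of 8 below 0 (median -0.03), with -0.12 for the protease Ctsk and 0.09 for Mmp15. The collagenases Mmp8 and Mmp13 were above background on 0 and 1 arrays.

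Proteins that bind fibrils had 10 of 14 below 0 and the lowest median of these lists, -0.11. The small proteoglycan Bgn had -0.21 (SE 0.06, unadjusted p = 0.0020, limma adjusted p = 0.679) and Fmod, a proteoglycan of tendon, -0.20 (SE 0.09, unadjusted p = 0.049).

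Markers of the cells that could carry collagen RNA had medians of different size. Tenocyte markers were below 0 in 8 of 9 cases, with a median of -0.11, and their mean per array ran from -0.34 to 0.16 in mHFD and from -0.29 to 0.13 in mLFD. Of these markers 4 (Fmod, Kera, Comp and Thbs4) are also in the list of proteins that bind fibrils, so the medians of the lists share members. Adipocyte markers were below 0 in 7 of 7 cases (median -0.35), with means per array from -1.01 to 0.29 in mHFD and from -1.01 to 0.92 in mLFD, and Lep was above background on no array. Markers of fibroblasts and fibro-adipogenic progenitors were below 0 in 6 of 10 cases (median -0.0050), with means from -0.30 to 0.14 and from -0.22 to 0.09. The other lists had medians of 0.0037 (endothelial, 3 of 8 below 0), 0.02 (smooth muscle and pericyte, 3 of 8), -0.05 (Schwann cell, 6 of 8), -0.06 (macrophage, 5 of 7) and 0.03 (muscle fibre, 1 of 10). No marker passed the threshold. The part of tendon, fat or connective tissue cells in the collagen values was not tested.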

How the data were processed

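Per the file headers, scanning used Agilent Feature Extraction 10.7.3.1, and mouse build mm9 underlies the probe coordinates. The authors deposited spot intensity values of both dyes, flags and the software's own log10 ratio (Cy5 over Cy3), already background-subtracted and dye-normalized. A second deposited table holds log2 values of 19377 spots, whose background correction and scaling are not given in the sources used here. Set against the scanner values, its columns matched log2 Cy5 corrected by Cy3 (gene-centred r of at least 0.965 with their own array, at most 0.761 with another), and it served as an alternative.

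Mean signals were corrected by normexp (offset 50) and normalized by loess within each array. Control spots (1377) and non-uniformity outliers had weight 0 and were then left out, and repeated spots were averaged by probe. Probes had to be well above background in Cy5 on 10 or more of the 20 arrays, and the 19206 (of 39429) that were entered the comparison with limma 3.58.1 (R 4.3.3), adjusted by Benjamini-Hochberg at 0.05. Dyes were not swapped. A gene is its brightest compared probe. To update names, 27234 probes were matched to RefSeq transcripts of GRCm38, and collagen probes kept the name in the scanner files. Positions of probes in exons or UTRs were not analysed here.

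Always described were the chains of types I, III, IV (Col4a1, Col4a2) and VI, then up to 3 (fibrillar, other) or 2 (basement membrane, type VI) genes of smallest p per class and 2 per partner list. Members and lists were chosen with earlier results of these data known. Correlations used 100000 permutations (SciPy 1.17.1). The fit was tested on simulated data. These were independent normal values without effects of slide, position or litter, so that test could not address such effects. The number of arrays limits the precision.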

Additional observations from a re-analysis of the deposited data

Results flagged for a closer look

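For the collagen genes compared and the partner genes named above, the highest and lowest array of each group were set against the rest, which made 82 checks. In 9 of them a single high array stood apart, against about 1 in 20 (4.1) by chance. Brackets give its distance to the next array, divided by the range of its group, and then its log2 ratio. On mLFD 07 these were Col2a1 (0.844, 1.71), Col3a1 (0.679, 1.44) and Col4a2 (0.505, 0.29). Among the other collagens they were Col5a1 on mLFD 02 (0.507, 0.07), Col4a4 on mHFD 05 (0.485, 0.69) and Col1a1 on mHFD 08 (0.484, 0.10). Without mHFD 08 the Col1a1 difference was -0.40. Among partner genes they were Itga10 on mLFD 05 (0.624, 0.71) and mHFD 01 (0.485, 0.05) and Fkbp7 on mLFD 04 (0.51, 0.25).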

How the results depend on the processing

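The count of 0 collagen genes and 0 partner genes past the threshold held in the 38 other fits. On the brightest compared probe, Col1a1, Col1a2, Col2a1, Col11a1, Col16a1, Col4a1, Col4a5, Col7a1, Col8a2, Col9a2 and Col18a1 stayed below 0 in each fit run. Second probes gave 0.085 for Col18a1 and -0.01 for Col16a1. Col1a1 lay between -0.40 and -0.26 and Col16a1 between -0.41 and -0.24 on its brighter probe. The medians of the classes moved by less than the spread between arrays, though by over 1.5 times for single arrays, as given above. That spread (SD 0.12 fibrillar, 0.09 basement membrane, 0.16 type VI and 0.06 other) is of class medians on single arrays. It was larger than the median differences, but a difference between group means varies less than single arrays do. The spread therefore cannot tell whether the median differences exceed the noise of the comparison. The basement membrane and type VI medians changed sign within that spread, so the limit does not show that the medians were stable. The following counts were added after the data had been seen. Of the collagen genes, 15 (of 19 compared) were below 0 when only probes above background on all 20 arrays were kept, against 47.0% of those probes. At an unadjusted p under 0.05, 0 collagen genes were lower with median centring, 1 with Cy5 alone, 1 with position as a covariate and 1 without slide 3. The shares of all probes in these fits were 0.213%, 1.10%, 1.80% and 2.43%, against 3.11% in the fit reported.

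The number of probes past the threshold went from 1 to 0 with the Agilent log ratio, median centring, scaling between arrays, Cy5 alone, the authors' value table, slide as a fixed block, position as a covariate and without slides 1, 2, 3 or 4, and between 0 and 1 when single arrays were left out. With the replicate number as a replicate block it was 2. The labels state no pairing, and the numbers were not taken as pairs. Same-numbered samples deviated together with r from -0.0099 to 0.35, and 3 of 10 matched best with their own number. The r of 0.35 was also the highest between any arrays. Same-numbered samples lay on the same slide, so these values cannot tell pairing from a shared slide. Under the replicate block no collagen gene passed and 3 were lower at an unadjusted p under 0.05, against 4.44% of all probes.

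Signs of small differences turned as follows, and the cause was not tested. With the Agilent log ratio these were Col5a2 -0.044, Col5a3 0.048, Col11a2 -0.099, Col4a2 -0.00058, Col14a1 -0.015 and Col20a1 -0.030. Without background correction they were Col15a1 0.0056 and Col20a1 -0.0049, with median centring Col12a1 0.00073, and with scaling between arrays Col6a1 0.0059 and Col15a1 0.017. Cy5 alone gave Col3a1 0.052, Col11a2 -0.083, Col4a2 -0.023, Col6a1 0.026 and Col20a1 -0.031. The authors' value table gave Col24a1 0.032, Col4a6 0.013, Col8a1 0.047, Col12a1 0.028, Col14a1 -0.026 and Col15a1 0.061. Position as a covariate gave Col5a1 0.023, Col5a3 0.10, Col24a1 0.069, Col6a2 0.020, Col6a3 0.030, Col12a1 0.071 and Col22a1 0.011. Leaving out slide 1 gave Col4a2 -0.0053, Col6a1 0.0020, Col8a1 0.0097 and Col12a1 0.071, and slide 2 Col6a3 0.0027. Leaving out slide 3 gave Col5a3 0.028, Col11a2 -0.0047, Col24a1 0.0032, Col4a4 -0.030, Col15a1 0.040 and Col22a1 0.016. Leaving out slide 4 gave Col3a1 0.044, Col5a2 -0.031, Col5a3 0.036, Col24a1 0.015 and Col6a1 0.038, and slide 5 Col14a1 -0.027. Other probes gave Col14a1 -0.0048, Col18a1 0.085, Col20a1 -0.0042, Loxl2 0.0060 and Ddr2 -0.078. With single arrays left out, Col12a1 ran from -0.072 to 0.022, Col14a1 from -0.028 to 0.065, Col6a1 from -0.078 to 0.039, Col15a1 from -0.036 to 0.034, Col11a2 from -0.0027 to 0.042, Col5a3 from -0.048 to 0.042, Col24a1 from -0.052 to 0.023 and Col3a1 from -0.15 to 0.041.

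Median centring raised r to 0.78 for Col5a1 with Col5a2, 0.86 for Col6a1 with Col6a2, 0.91 for Col4a1 with Col6a1 and 0.77 for Col1a1 with Col6a1. The last pair was at 0.19 with group and slide means subtracted. Without the 2 farthest arrays r was 0.44 for Col1a1 with Col1a2, 0.28 with Col3a1 and 0.42 with Col4a1.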
